A study of Mus musculus with 6 samples.

Results

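The 9 genes described here, Krt7, Krt19, Krt8, Krt18, Krt23, Epcam, Sox9, Cftr and Prom1, mark bile duct cells (cholangiocytes) and the duct-like cells that multiply in an injured liver. They were taken by symbol from the 40481 genes of the deposited table, and all 9 were found and passed the filter on low read counts. Cholangiocytes line the bile ducts and alter bile by secreting chloride, bicarbonate and water. In chronic liver injury, small ducts and cells with both duct and hepatocyte features increase in number, which is called the ductular reaction. Keratins, the proteins of epithelial intermediate filaments, are obligate pairs of a type I and a type II chain. Krt8 and Krt18 are made by hepatocytes and duct cells alike, whereas Krt7 and Krt19 are made by duct cells and not by hepatocytes in the healthy liver.

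The livers came from 12- to 16-week-old male mice on a C57BL/6 background, all of them Mttp f/f Villin Cre ERT2 and all fed the methionine- and choline-deficient (MCD) diet, a diet that causes steatohepatitis, for 3 weeks from 3 weeks after injection. Tissues of both groups were taken after 4 to 6 h of fasting by the article's methods, and the labels give 4 h for every pool. Tamoxifen was injected to delete Mttp, which encodes the microsomal triglyceride transfer protein of chylomicron assembly, and gave the *Mttp-IKO* group; control littermates received vehicle, although the labels call them wild type. The Villin promoter drives Cre in the intestinal epithelium, and both groups carry the floxed alleles and the transgene. Only the *Mttp-IKO* group received tamoxifen, so an effect of the drug and an effect of the deletion cannot be told apart. Whether the transgene also acted in cells of the liver was not tested. RNA-Seq was run on 3 pools per genotype, each of RNA from 3 to 4 mice by the article's methods, so that variation among single mice could not be measured. The labels speak of 12 livers, which does not match that number of mice. Vil1, the gene of villin itself, was at 1.29 to 3.22 CPM in these livers, with overlapping pools.

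The pools held 25271585 to 36238734 reads on genes. Levels are given as normalized CPM, the count relative to a library size corrected with TMM (the trimmed mean of M values), and fold changes as log2 of *Mttp-IKO* over control, so that negative values are lower in *Mttp-IKO* pools. Of 17287 genes tested, 694 passed an adjusted p of 0.05 (edgeR quasi-likelihood test, Benjamini-Hochberg), 159 higher and 535 lower. Scaling by total counts moved this split to 112 higher and 907 lower. Whole liver was sequenced, so fewer duct cells and less of an RNA in each cell cannot be told apart.

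None of the 9 genes passed the test over all genes (0 of 9, edgeR), where 4.01% of all genes tested passed it, 3.09% in the lower direction. At an unadjusted p under 0.05 the count was 4, against 23.0% of all genes tested. The DESeq2 Wald test passed 2 of the 9 (Krt8 and Epcam) and 11.5% of all genes, and limma-voom passed 0 of the 9 and 2.48% of all genes. For Krt8, Krt18, Epcam and Cftr every *Mttp-IKO* pool lay below every control pool. That is 4 of 9 genes, against 31.0% of all genes tested with no overlap in either direction and 16.5% with *Mttp-IKO* lower. The estimates were lower in 6 of the 9 genes and higher in 3, with a median log2 fold change of -0.22, beside 0.0057 over all genes tested.

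**Figure D1:**
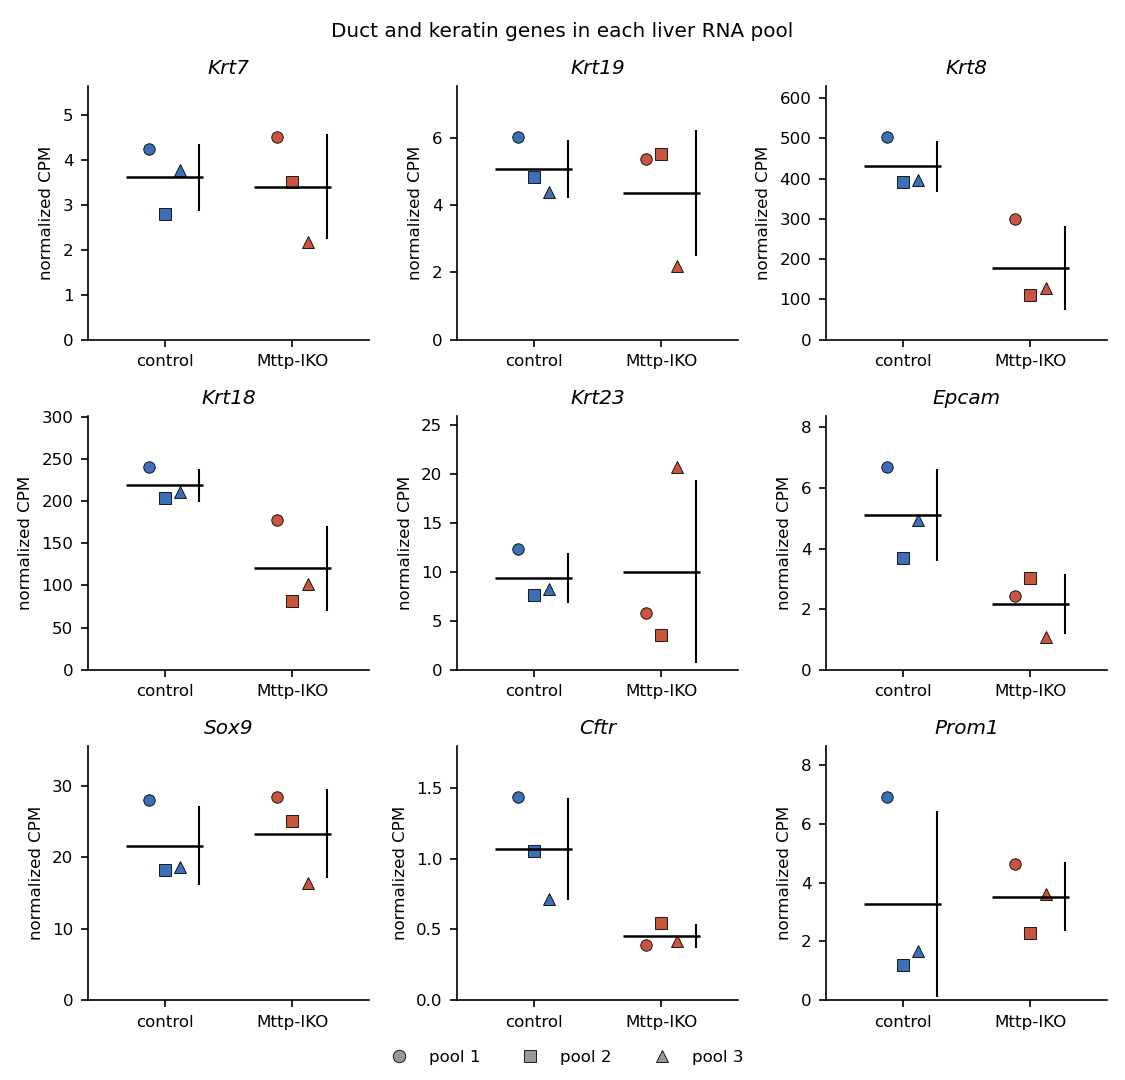
Normalized CPM of each gene (vertical axis, from 0) in the 3 control pools (blue) and the 3 *Mttp-IKO* pools (red), with marker shapes for pools 1 to 3, the mean as a horizontal line and the SD (n = 3 pools) as a vertical line. The groups stand apart for Krt8, Krt18, Epcam and Cftr and overlap for the other 5 genes.

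Krt8 encodes the type II keratin of simple epithelia. Its level was 504, 391 and 397 CPM in control pools 1 to 3 and 299, 109.7 and 127 CPM in *Mttp-IKO* pools 1 to 3. All control pools were above all *Mttp-IKO* pools, and *Mttp-IKO* pool 1 stood well above the other 2 pools of its group. The means were 431 ± 63.7 and 179 ± 105 CPM (SD, n = 3), a log2 fold change of -1.27 (SE 0.375, 95% interval -2.13 to -0.40, adjusted p = 0.0994, edgeR). Without *Mttp-IKO* pool 1 the log2 fold change was -1.86 and passed the threshold (adjusted p = 0.0435, edgeR), as it did by the DESeq2 Wald test with all pools (adjusted p = 0.0124).

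Krt18, the type I partner of Krt8, was read at 241, 204 and 211 CPM in the control pools, against 177, 81.7 and 102 CPM in the *Mttp-IKO* pools. The order of the pools was the same as for Krt8, with *Mttp-IKO* pool 1 again nearest to the controls. The mean went from 219 ± 19.3 to 120.3 ± 50.5 CPM (log2 fold change -0.86, SE 0.284, 95% interval -1.52 to -0.21, adjusted p = 0.128, edgeR). Krt8 and Krt18 correlated across the 6 pools with r = 0.995 (log2 CPM), the highest of the 36 pairs among the 9 genes and the only one above 0.9, and with r = 0.989 after the genotype means were subtracted. Such values over 6 pools describe these libraries, which share their depth scaling, and are no test.

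The ratio of the keratin partners within a pool does not depend on library scaling. Per length, as RPKM (CPM divided by the length of the exons in kilobases), Krt8 stood to Krt18 at 1.63, 1.49 and 1.46 in control pools and 1.31, 1.04 and 0.970 in *Mttp-IKO* pools. Every control ratio was above every *Mttp-IKO* ratio, with means of 1.52 ± 0.0906 and 1.11 ± 0.178 (SD, n = 3; two-sided exact permutation test, p = 0.1, the lowest possible with 3 pools a group, and 0.2 after adjustment over 6 ratios). The difference in Krt8 was thus larger than that in Krt18 in these pools, without passing a test.

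Krt8 and Krt18 are neighbours on chromosome 15 of GRCm38. Krt8 (ENSMUSG00000049382) lies on the minus strand from 101996711 to 102004342 and Krt18 (ENSMUSG00000023043) on the plus strand from 102028216 to 102032026, so that they are transcribed away from each other across 23873 bases with 0 annotated genes in GENCODE M21. Krt7 (ENSMUSG00000023039) is on the same chromosome, 566397 bases before Krt8. Of the different 50-base words in the longest coding transcript of Krt8, 29.7% also occur in transcripts of Krt8-ps or Gm36026, and 0.72% of those of Krt18 occur in Gm17847 or Gm5200. Gm36026 overlaps Krt8 on the opposite strand, so words shared with it need not lie at another place in the genome. Only uniquely aligned, unambiguous reads were counted. Reads from shared stretches could thus be left out, so the level of Krt8 is less certain than its error shows.

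Epcam encodes an adhesion molecule of the epithelial cell surface that in the normal adult liver is found on duct cells and not on hepatocytes. Epcam was at 6.69, 3.69 and 4.93 CPM in the control pools, against 2.45, 3.02 and 1.09 CPM in the *Mttp-IKO* pools. The groups did not overlap, although control pool 2 and *Mttp-IKO* pool 2 were close, and *Mttp-IKO* pool 3 was the lowest. The means were 5.11 ± 1.51 and 2.19 ± 0.99 CPM (log2 fold change -1.22, SE 0.396, 95% interval -2.13 to -0.30, adjusted p = 0.124, edgeR). By the DESeq2 Wald test its adjusted p was 0.0326.

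Cftr encodes the chloride channel of the apical membrane of cholangiocytes, which opens on secretin signaling. It was counted with 58, 38 and 23 reads in control pools and 12, 16 and 10 reads in *Mttp-IKO* pools. At 1.44, 1.05 and 0.718 CPM against 0.387, 0.549 and 0.419 CPM the groups did not overlap, and control pool 1 was the highest. The mean went from 1.07 ± 0.36 to 0.452 ± 0.0856 CPM (log2 fold change -1.24, SE 0.405, 95% interval -2.17 to -0.31, adjusted p = 0.124, edgeR). Cftr (ENSMUSG00000041301, chromosome 6, 18170687 to 18322768) overlaps the antisense gene Gm15592, counted with 0 to 4 reads per pool, and it is not stated whether the counting used the strand.

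**Figure D2:**
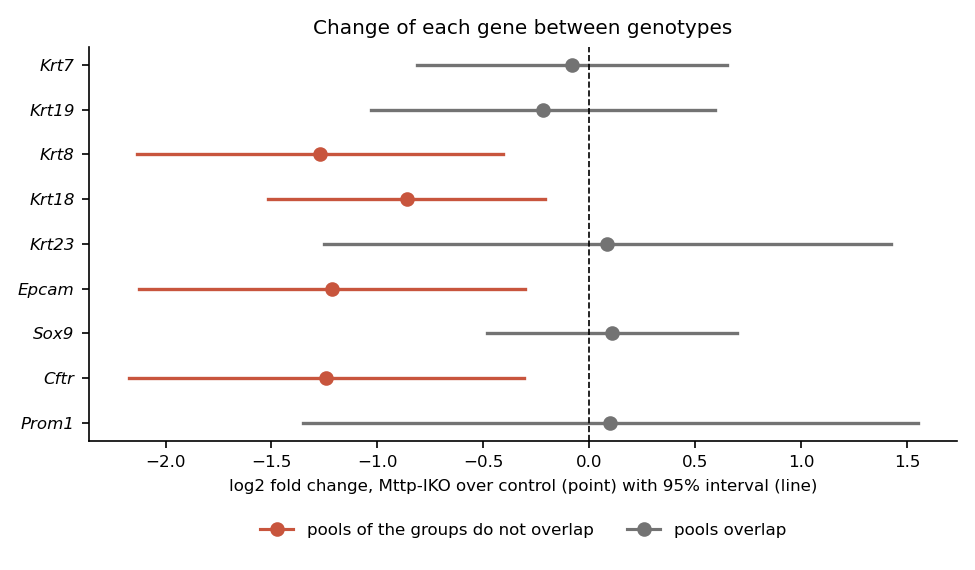
Log2 fold change of each gene between genotypes (horizontal axis, *Mttp-IKO* over control; point) with its 95% interval from edgeR (line), in red where the pools of the groups did not overlap. The intervals of Krt8, Krt18, Epcam and Cftr lie below 0, and those of Krt7, Krt19, Krt23, Sox9 and Prom1 span 0; no adjusted p was under 0.05.

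The promoters of the 4 genes whose pools did not overlap are shown, chosen by that separation alone. Within the *Mttp-IKO* group these genes were not low in the same pools. There, pool 2 was the lowest for Krt8 and Krt18 and the highest for Epcam and Cftr. The sequences are RefSeq's, on GRCm38.p6, cover the 250 bases before the RefSeq start and were cut where a GENCODE M21 gene model begins earlier. RefSeq's table held promoters for 7 of the 9 genes. They are written 5′ to 3′ on the gene's own strand, Krt8 from chr15:102004483-102004592 (minus strand), Krt18 from chr15:102027966-102028179 (plus), Epcam from chr17:87635729-87635978 (plus) and Cftr from chr6:18170437-18170686 (plus), in lower case with matches to the motifs below in capitals.
Krt8: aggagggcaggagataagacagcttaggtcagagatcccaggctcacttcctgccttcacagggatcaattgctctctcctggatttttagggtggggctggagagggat
Krt18: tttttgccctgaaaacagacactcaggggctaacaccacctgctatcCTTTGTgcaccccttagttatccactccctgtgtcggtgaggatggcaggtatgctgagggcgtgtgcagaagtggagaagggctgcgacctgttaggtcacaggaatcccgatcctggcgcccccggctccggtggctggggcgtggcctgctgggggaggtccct
Epcam: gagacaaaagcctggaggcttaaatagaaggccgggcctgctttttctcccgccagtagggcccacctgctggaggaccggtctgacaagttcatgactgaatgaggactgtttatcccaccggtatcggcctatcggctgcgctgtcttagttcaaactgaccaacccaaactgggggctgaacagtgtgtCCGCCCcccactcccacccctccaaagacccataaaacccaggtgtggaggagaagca
Cftr: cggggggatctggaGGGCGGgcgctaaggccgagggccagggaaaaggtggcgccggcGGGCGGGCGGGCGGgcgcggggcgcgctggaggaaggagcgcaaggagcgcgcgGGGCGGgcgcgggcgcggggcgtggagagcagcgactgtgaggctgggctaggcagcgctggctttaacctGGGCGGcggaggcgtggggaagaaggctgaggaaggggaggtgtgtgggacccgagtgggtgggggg

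Capitals mark the GC box GGGCGG on either strand, of which Cftr holds a cluster and Epcam 1 copy, and in Krt18 the SOX motif ACAAAG, read on the opposite strand. In the 250 bases, here not cut, of the 7 genes with a promoter, the GC box occurred in 4 (Krt7, Epcam, Cftr and Prom1), against 32.7% of 32851 RefSeq promoters. The stretches searched for Krt7 and Prom1 lie wholly inside their GENCODE M21 gene models. The RBPJ motif TGGGAA was in 2 (Krt8, in the stretch left out above, and Prom1; 21.6% of promoters), ACAAAG in 1 (16.5%), and the AP-1 motif TGANTCA (6.75%) and CCAAT (33.85%) each in Prom1 alone. The TATA box TATAAA (12.4%), the TEAD motif GGAATG (12.6%) and the HNF1 motif GTTAAT (6.43%) were in 0 of the 7. Both strands were searched, and a match of so few letters describes the sequence only. Epcam and Cftr had the GC box in common, Krt8 and Krt18 shared 0 of these motifs, and 0 of them were in all 4 genes shown.

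The 2 keratins made by duct cells and not by healthy hepatocytes gave no such separation. Krt19, the type I keratin of duct cells, was at 6.03, 4.82 and 4.37 CPM in the control pools, against 5.35, 5.52 and 2.18 CPM in the *Mttp-IKO* pools. Only *Mttp-IKO* pool 3 was below the control pools, and the other 2 lay within them. The means were 5.07 ± 0.854 and 4.35 ± 1.88 CPM (log2 fold change -0.22, 95% interval -1.03 to 0.60, adjusted p = 0.752, edgeR), and without *Mttp-IKO* pool 3 the sign turned (0.10). The interval includes a decrease as large as that estimated for Krt18 (-0.86) as well as an increase.

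Krt7, a type II keratin of duct cells, was at 4.24, 2.80 and 3.78 CPM in the control pools, against 4.51, 3.50 and 2.18 CPM in the *Mttp-IKO* pools. The groups overlapped, with *Mttp-IKO* pool 1 the highest and *Mttp-IKO* pool 3 the lowest of all. Its means were 3.61 ± 0.735 and 3.40 ± 1.17 CPM (log2 fold change -0.082, 95% interval -0.81 to 0.65, adjusted p = 0.904, edgeR), positive without control pool 1 (0.037) or *Mttp-IKO* pool 3 (0.15). Krt7 and Krt19 correlated over the 6 pools with r = 0.834.

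Krt23, a type I keratin that is low in the normal liver and induced in injured liver and in tumors, was the most uneven of the keratins. It was at 12.3, 7.62 and 8.25 CPM in the control pools, against 5.77, 3.57 and 20.7 CPM in the *Mttp-IKO* pools. *Mttp-IKO* pools 1 and 2 were below all control pools and pool 3 was above them. The log2 fold change was 0.086 (95% interval -1.25 to 1.42, adjusted p = 0.948, edgeR), and -1.01 without *Mttp-IKO* pool 3 (adjusted p = 0.1002, edgeR). The sign also turned without control pool 2 (-0.077) or control pool 3 (-0.035).

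Sox9 encodes the transcription factor that marks the embryonic ductal plate and, in the adult, duct cells and the hepatocytes next to them. It was at 28.1, 18.2 and 18.7 CPM in the control pools, against 28.4, 25.1 and 16.4 CPM in the *Mttp-IKO* pools, with pool 1 of each group high and the groups overlapping. The log2 fold change was 0.11 (95% interval -0.48 to 0.70, adjusted p = 0.839, edgeR). It turned to between -0.061 and -0.0097 without control pool 2, control pool 3 or *Mttp-IKO* pool 1, and to -0.082 with scaling by total counts.

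Prom1 encodes prominin 1 (CD133), a protein of membrane protrusions on progenitor and duct cells. Its level was 6.92, 1.19 and 1.69 CPM in the control pools, against 4.64, 2.30 and 3.61 CPM in the *Mttp-IKO* pools. Control pool 1 was the highest of all, and control pools 2 and 3 were the lowest of all. The log2 fold change was 0.10 (95% interval -1.35 to 1.55, adjusted p = 0.944, edgeR), and 1.27 without control pool 1 (adjusted p = 0.240, edgeR). The gene overlaps the antisense gene Gm16401, counted with 12, 2 and 0 reads in control pools and 18, 1 and 4 reads in *Mttp-IKO* pools.

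Levels of different genes were compared per length, as RPKM over all 6 pools. Krt8 was the highest at 169 ± 87.7 RPKM (SD, n = 6), followed by Krt18 (121 ± 45.6), Krt23 (6.20 ± 3.92), Sox9 (5.43 ± 1.30), Krt19 (2.54 ± 0.736), Epcam (1.79 ± 0.963), Prom1 (0.751 ± 0.475), Krt7 (0.496 ± 0.125) and Cftr (0.098 ± 0.053). Of the 8 steps in this order, 3 separated the pools completely, those from Krt18 to Krt23, from Sox9 to Krt19 and from Krt7 to Cftr. The neighbours in the other 5 overlapped. Compared within each pool, Krt8 was above Krt18 and Epcam above Prom1 in 5 of 6 pools. The other neighbours that overlapped kept their order in 4 of 6 pools. Krt7 is counted over 7055 nt of exons where its longest coding transcript has 4094 nt, which lowers its RPKM.

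The other ratios set the genes against Krt19, which is made by duct cells and also by mesothelial cells, whose markers are given below. The ratio of Epcam to Krt19 was 1.01, 0.695 and 1.03 in control pools and 0.416, 0.497 and 0.455 in *Mttp-IKO* pools. No pool of one group reached the other, and the mean went from 0.911 ± 0.187 to 0.456 ± 0.0404 (SD, n = 3; exact permutation test, two-sided p = 0.1, adjusted 0.2). The ratio of Krt8 to Krt19, whose counted lengths are 1805 and 1855 nt, was 86.0, 83.3 and 93.2 in control pools and 57.4, 20.4 and 60.0 in *Mttp-IKO* pools, again without overlap (exact permutation test, two-sided p = 0.1, adjusted 0.2). For Krt18 to Krt19 (exact p = 0.3), Sox9 to Krt19 (0.2) and Krt7 to Krt19 (0.5, all exact permutation tests) the groups overlapped. So 3 of the 6 ratios separated the groups, and none could pass a threshold of 0.05 in this design. The ratios were chosen after values had been seen, and Krt8 and Epcam by themselves already separated the groups. This count is therefore a description only, and the share of other gene pairs that separate was not computed.

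**Figure D3:**
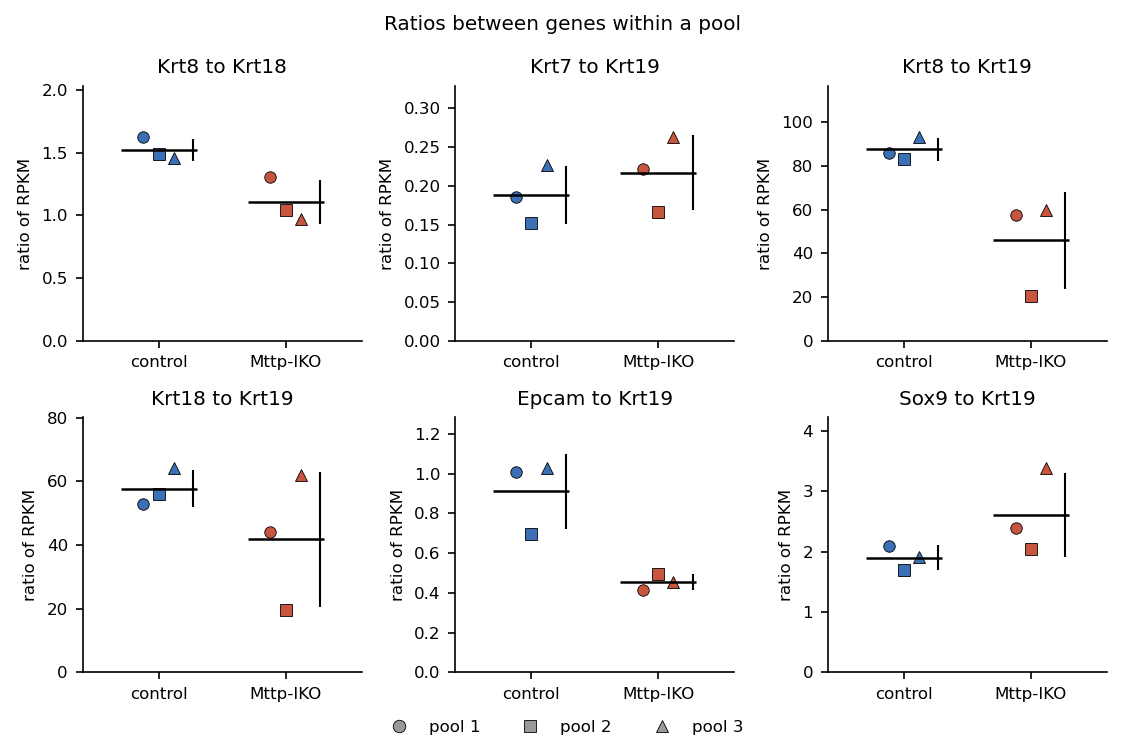
Ratio of the RPKM of gene pairs within each pool (vertical axes, from 0) in control pools (blue) and *Mttp-IKO* pools (red), with mean (horizontal line) and SD (vertical line, n = 3 pools). The groups do not overlap for Krt8 to Krt18, Krt8 to Krt19 and Epcam to Krt19, all lower in *Mttp-IKO* pools.

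The signs of Krt19, Krt23 and Krt7 turned without *Mttp-IKO* pool 3, and Krt7, counted over 7055 nt, is not a short gene. *Mttp-IKO* pool 3 differed from the other pools in its yield of short mRNAs. For protein-coding genes of 1000 to 2000 nt, the class of Krt18, Krt23, Krt8 and Krt19, its median deviation from the *Mttp-IKO* mean was -0.31 on the log2 scale, against 0.18 and 0.16 in *Mttp-IKO* pools 1 and 2. The part of this in the single genes was not tested directly; with each library's trend with gene length removed, Krt18 had a log2 fold change of -0.74, Krt19 of -0.16 and Krt23 of 0.33, and again 0 of the 9 passed (edgeR; 4 at an unadjusted p under 0.05).

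Lists of related genes were described in the same fit. Of 20 further genes of biliary identity, 19 were tested, 15 had lower estimates and 2 passed the test, both lower in *Mttp-IKO* pools, against 3.09% of all genes. The DESeq2 Wald test passed 6 of them as lower and 1 as higher, and limma-voom passed 0 (10 at an unadjusted p under 0.05). Cd24a, which encodes a surface glycoprotein, was at 14.7, 8.37 and 9.59 CPM in the control pools, against 5.42, 4.63 and 4.45 CPM in the *Mttp-IKO* pools (log2 fold change -1.17, adjusted p = 0.0452, edgeR). Foxj1, the gene of the transcription factor of motile cilia, fell from 1.65 ± 0.516 to 0.27 ± 0.181 CPM (log2 fold change -2.61, adjusted p = 0.0485, edgeR). In 8 of the 19 all *Mttp-IKO* pools were lower, where 16.5% of all genes were, and in 1, Onecut2, all were higher (178 ± 17.5 and 268 ± 49.7 CPM, adjusted p = 0.122). The median log2 fold change was -0.85. Spp1, the gene of osteopontin, was at 148, 39.3 and 108 CPM in the control pools, against 53.3, 47.4 and 26.8 CPM in the *Mttp-IKO* pools, which overlapped because control pool 2 was low. Whole liver was sequenced, so the cells that made the RNAs of this list are not known. Macrophage markers, given below, also had a median below 0 (-1.21), and their part in these levels was not tested. The count of 2 became 4 without control pool 2, 1 without *Mttp-IKO* pool 3 and 0 without any one of the other 4 pools (edgeR; 6 to 12 of the 19 at an unadjusted p under 0.05).

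Of 15 genes of bile duct transport and the secretin response, 13 were tested and 1 passed (3 by DESeq2, and 0 by limma-voom with 4 at an unadjusted p under 0.05). Over all genes tested, 3.09% passed as lower by edgeR. Kcnn4, which encodes a calcium-gated potassium channel, was at 6.60, 2.58 and 5.09 CPM in the control pools, against 0.645, 0.892 and 1.30 CPM in the *Mttp-IKO* pools (log2 fold change -2.34, adjusted p = 0.0314, edgeR). The list's median was -0.27. Its most abundant gene, the water channel gene Aqp1, was at 127 ± 21.04 and 114 ± 2.62 CPM (log2 fold change -0.15, adjusted p = 0.641, edgeR). Kcnn4 is also known from macrophages and other blood cells, whose markers are given below. The cells that made the RNAs of this list, Aqp1 among them, are not known from whole liver. Among 9 tested genes of the apical membrane and microvilli 0 passed (edgeR; 3 at an unadjusted p under 0.05, 1 by DESeq2, 0 by limma-voom), and of 16 genes of epithelial junctions 1 did, the desmosome gene Dsp.

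The next list holds proteins that bind keratins or join them in Mallory-Denk bodies, the keratin aggregates of injured hepatocytes. Of 15 genes tested, 13 had lower estimates, 8 had all *Mttp-IKO* pools below all control pools (16.5% of all genes) and 3 passed the test, all lower (3.09% of all genes), with a median log2 fold change of -1.06. Dsp, which encodes desmoplakin, the anchor of keratin filaments at desmosomes, was at 149.9, 147 and 121 CPM in the control pools, against 75.1, 53.5 and 72.4 CPM in the *Mttp-IKO* pools (log2 fold change -1.06, SE 0.188, adjusted p = 0.0293, edgeR). The small heat shock protein gene Hspb1 fell from 33.9 ± 10.01 to 8.77 ± 3.93 CPM (log2 fold change -1.95, adjusted p = 0.0292, edgeR). Cryab, of the same protein family, fell too (log2 fold change -2.18, adjusted p = 0.0403, edgeR). It was at 17.4 CPM in control pool 2 against 8.85 and 4.997 CPM in control pools 1 and 3. The *Mttp-IKO* pools had 2.29, 2.74 and 1.85 CPM of Cryab. The 10 striated muscle genes described below summed to 107, 837 and 1.41 CPM in control pools 1 to 3, and to at most 1.74 CPM in *Mttp-IKO* pools. Whether muscle RNA added to the Cryab level was not tested. Sqstm1, the gene of p62, the main partner of keratins in these bodies, was at 759, 700.2 and 782 CPM in the control pools, against 606, 327 and 535 CPM in the *Mttp-IKO* pools, apart but short of the threshold (log2 fold change -0.61, adjusted p = 0.192, edgeR). The count of 3 was 4 without control pool 2, 3 without *Mttp-IKO* pool 3, 1 without *Mttp-IKO* pool 1 and 0 without any one of the other 3 pools (edgeR; 5 to 8 of the 15 at an unadjusted p under 0.05).

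**Figure D4:**
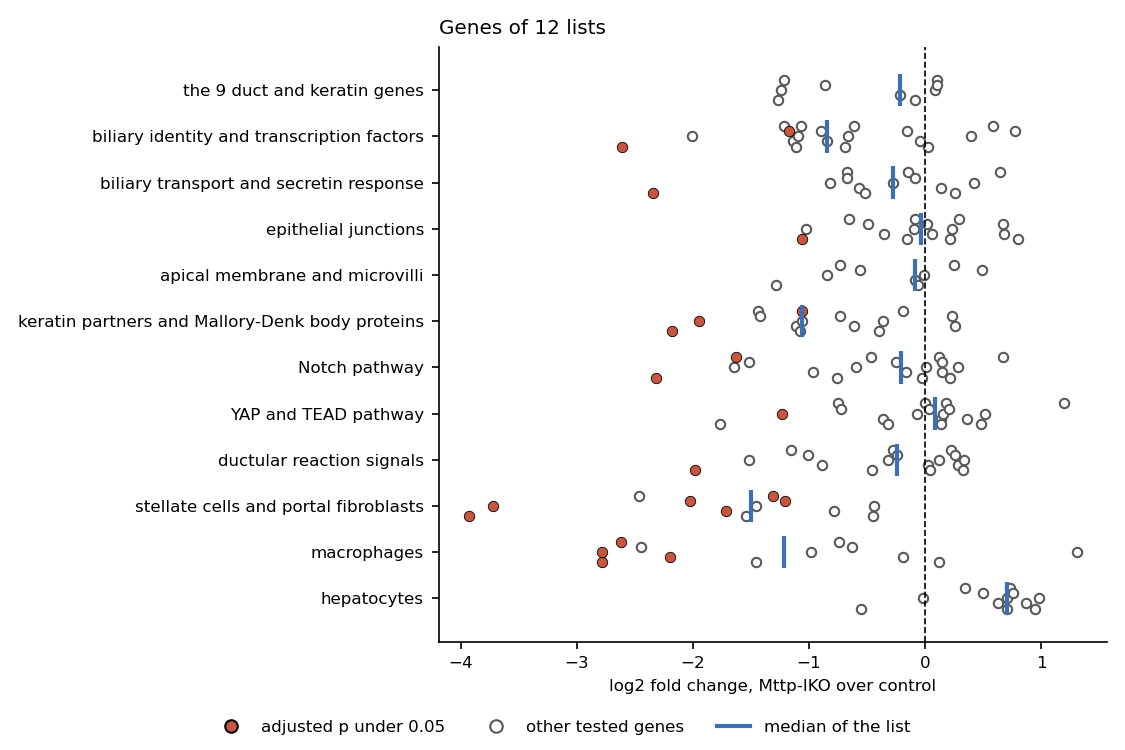
Log2 fold change (horizontal axis, *Mttp-IKO* over control) of every tested gene in the 9 genes described and in 11 lists, filled red where the adjusted p was under 0.05 (edgeR), with the median of each list as a blue bar. None of the 9 genes passed, their median was -0.22, and the median of the keratin partners was -1.06.

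The calls in 3 lists of signals known to direct duct cells are to be read against the same 3.09% of all genes. Of 18 Notch pathway genes 2 passed, both lower, the receptor gene Notch3 (14.2 ± 3.75 to 4.61 ± 2.19 CPM, log2 fold change -1.63, adjusted p = 0.0459, edgeR) and the target gene Heyl (5.42 ± 1.63 to 1.11 ± 0.823 CPM, log2 fold change -2.31, adjusted p = 0.0462, edgeR). Notch3 and Heyl are also known from vascular mural cells. Whole liver was sequenced, so the cells that made the RNAs of these 3 lists are not known. Notch2, the receptor of bile duct formation, was at 175 ± 20.9 and 193 ± 11.7 CPM (log2 fold change 0.14, adjusted p = 0.635, edgeR), and the list's median was -0.20. Of 18 genes of the YAP and TEAD pathway 1 passed, the receptor kinase gene Axl (125 ± 33.2 to 53.4 ± 3.27 CPM, log2 fold change -1.23, adjusted p = 0.0292, edgeR), with a median of 0.087. Of 17 tested genes of ductular reaction signals 1 passed, Wnt7b, which encodes a Wnt ligand, at 18.8, 11.5 and 19.5 CPM in the control pools, against 2.55, 4.77 and 5.37 CPM in the *Mttp-IKO* pools (log2 fold change -1.98, adjusted p = 0.0241, edgeR), with a median of -0.24. Of the genes of these 3 lists and of the transport and junction lists, 0 passed without control pool 1, without control pool 3, without *Mttp-IKO* pool 1 or without *Mttp-IKO* pool 2 (edgeR). At an unadjusted p under 0.05 these fits gave 5 to 8 Notch pathway genes, 2 to 6 of the YAP and TEAD pathway, 2 to 5 of the signals, 3 to 5 of the transport list and 1 to 3 of the junction list.

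Marker lists of other cell types were described in the same way, where 3.09% of all genes tested passed as lower. Of 12 genes of stellate cells and portal fibroblasts 6 passed, all lower (median -1.50), with a summed level of 894 to 1557 CPM in control pools and 475 to 525 CPM in *Mttp-IKO* pools. Of 12 macrophage genes 4 passed, all lower (median -1.21), with 728 to 1503 CPM and 482 to 796 CPM. Of 12 hepatocyte genes 0 passed (edgeR; 6 at an unadjusted p under 0.05, 5 by DESeq2, 0 by limma-voom; 3, all higher, with the length trend removed and 2, both higher, without *Mttp-IKO* pool 3), with a median of 0.71 and a summed level of 69440.1 to 108357 CPM in control pools and 128271 to 183962 CPM in *Mttp-IKO* pools. Without single pools the stellate cell count of 6 was 2 (control pool 1), 6 (control pool 2), 1 (control pool 3), 1 (*Mttp-IKO* pool 1), 0 (*Mttp-IKO* pool 2; edgeR, 10 at an unadjusted p under 0.05) and 3 (*Mttp-IKO* pool 3). The macrophage count of 4 was 7 without control pool 2, 4 lower and 1 higher without *Mttp-IKO* pool 3, and 0 without any one of the other 4 pools (edgeR; 7 to 9 at an unadjusted p under 0.05). The part of these shifts in the levels of the duct and keratin genes was not tested. The 10 endothelial genes had a median of -0.027, and 0 passed (edgeR; 1 at an unadjusted p under 0.05, 1 by DESeq2, 0 by limma-voom). The 11 genes on the small intestine list summed to 836 to 2933 CPM over the pools, most of it Apoa4 (791 to 2878 CPM), an apolipoprotein gene that mouse liver also expresses. Lgals4 was at 21.4 to 36.0 CPM and Fabp2 at 8.31 to 40.2 CPM, with all *Mttp-IKO* pools below the control pools for Fabp2 (adjusted p = 0.280, edgeR). Krt20 ran from 0.0686 to 3.72 CPM, and the other 7 were at most 0.812 CPM, with Cdx1, Cdx2, Sis and Lct at most 0.471 CPM. The mesothelial list, whose cells also make Krt8, Krt18 and Krt19, had 9 genes tested and a median of -0.12, and 0 passed by edgeR, DESeq2 or limma-voom or at an unadjusted p under 0.05.

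Genes of striated muscle and of stratified epithelia stood out in control pool 2. Its 10 striated muscle genes summed to 837 CPM, against 107 CPM in control pool 1 and at most 1.74 CPM in the other 4. Krt13, a keratin of stratified squamous epithelia, was at 165 CPM in control pool 2 and at most 0.171 CPM elsewhere. Krt5, of the basal layer, was at 13.8 CPM against at most 1.10 CPM. None of the 9 genes was highest in control pool 2. Without that pool 0 of the 9 passed (edgeR; 4 at an unadjusted p under 0.05), with log2 fold changes of -1.35 for Krt8, -0.92 for Krt18, -1.42 for Epcam and -1.28 for Cftr.

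**Figure D5:**
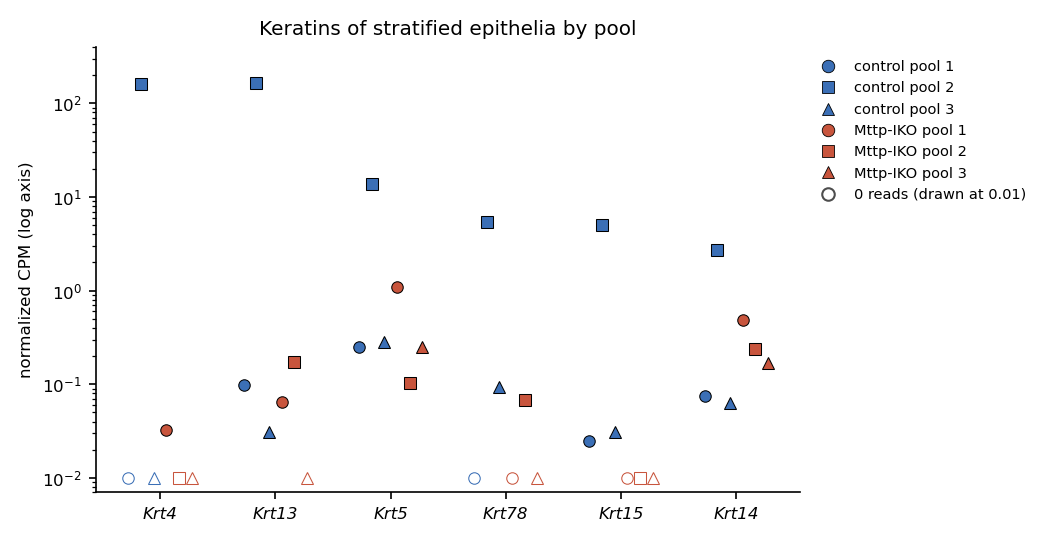
Normalized CPM (vertical log axis) of 6 keratins of stratified epithelia in each pool, with open markers at 0.01 for pools with 0 reads. Control pool 2 lies above every other pool for all 6, with 161 CPM of Krt4 and 165 CPM of Krt13.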

How the data were processed

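Liver RNA-Seq of 3 control and 3 *Mttp-IKO* pools was compared, with groups and replicate numbers from the sample labels. The authors deposited for each pool the count of uniquely aligned, unambiguous reads per gene (featureCounts 1.4.6-p5 after STAR 2.5.1a, per the processing notes and methods, on Ensembl release 76, GRCm38), after depletion of ribosomal RNA. The deposited CPM and RPKM values followed from these counts and were not tested. A table of all pools gave symbols for 40481 of 41388 genes, with identical counts; its 276 repeated lines were removed.

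Genes were kept by filterByExpr (minimum count 10, total 15), scaled by TMM and compared in R 4.3.3 by the quasi-likelihood test of edgeR 4.0.16, with p adjusted by Benjamini-Hochberg over every tested gene (threshold 0.05), since the article names no test for RNA-Seq. RPKM were recomputed with TMM library sizes and deposited gene lengths. A count of 0 allows up to 3 reads, 0.0828 to 0.119 CPM by pool, which covers counting error only. The script was tested on simulated data. The genes, lists and motifs were chosen with earlier results of these data known; the 6 ratios and the list of stratified epithelium genes were chosen after values had been seen. Named genes are the 9 genes, called genes and the 3 most abundant of each list, the 3 genes most like each of the 9, and others chosen after their values were seen. Eppk1 and Muc16, on the lists of keratin partners and mesothelium, were not analysed here. Words of 50 bases were compared with GENCODE M21 transcripts. Alternatives were other scalings, filters and tests (DESeq2 1.42.0, limma-voom of limma 3.58.1), the length trend (loess span 0.3), the replicate block and leaving out each pool. Figures were drawn with matplotlib 3.10.9.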

Additional observations from a re-analysis of the deposited data

How the results depend on the processing

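Krt8, Krt18, Epcam and Cftr kept a lower estimate in *Mttp-IKO* pools under every alternative in which they were tested. For a left-out pool this was all but fixed beforehand, since every *Mttp-IKO* pool lay below every control pool for these genes. The DESeq2 Wald test raised the genes past the threshold from 694 to 1995 (2 of the 9 genes described) and limma-voom lowered them to 428 (0 of the 9). Leaving out single pools, the count ran from 0 (without *Mttp-IKO* pool 2, with 3221 at an unadjusted p under 0.05) to 892 (without control pool 2), and that of the 9 genes from 0 to 1, the 1 being Krt8 without *Mttp-IKO* pool 1. It was 24 without control pool 1, 21 without control pool 3, 55 without *Mttp-IKO* pool 1 and 864 without *Mttp-IKO* pool 3. Scaling by total counts moved the median log2 fold change of all genes from 0.0057 to -0.17 and turned the signs of Krt23 (-0.097), Sox9 (-0.082) and Prom1 (-0.10), each nearer to 0 than that shift; the lower share of called genes went from 77.1% to 89.0%. Limma-voom turned Krt23 to -0.35. With a pool left out, the log2 fold changes ran from -0.34 to 0.15 for Krt7, -0.42 to 0.10 for Krt19, -1.01 to 0.49 for Krt23, -0.061 to 0.32 for Sox9 and -0.32 to 1.27 for Prom1; the causes were not tested.

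The labels number the pools 1 to 3 in each genotype, but deviations from the group means correlated between same-numbered pools at r = 0.139, 0.112 and 0.00698, so the numbers were not taken to pair them; 5 of 6 pools correlated best with their own number. With the replicate block, 592 genes passed, 1 of the 9 passed (Krt8, log2 fold change -1.41, adjusted p = 0.0422, edgeR) and Krt23 turned to -0.30; 0 Notch pathway genes passed in place of 2 (edgeR; 8 at an unadjusted p under 0.05). With the block and the length trend removed together, an alternative added after seeing the data, again 1 passed (Krt8, adjusted p = 0.0351, edgeR) and Krt23 was at -0.19. A minimum of 1 CPM in 3 pools removed Cftr.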

Other observations

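The stratified epithelium signal of control pool 2 was followed in a wider list, written after the keratin values had been seen and therefore without a test. Krt4, the partner of Krt13 in the upper layers of squamous mucosae, was at 161 CPM in control pool 2, with 0 reads in 4 of the other pools and 0.0322 CPM in *Mttp-IKO* pool 1. Sprr3, a precursor of the cornified envelope, was at 13.1 CPM with 0 reads in all other pools. The transglutaminase gene Tgm3 was at 15.9 CPM against at most 0.125 CPM, and Trp63, the gene of the basal cell factor p63, at 1.69 CPM against at most 0.187 CPM. Sprr1a was not high in control pool 2 alone, at 37.5, 21.7 and 24.7 CPM in the control pools, against 13.7, 3.98 and 2.47 CPM in the *Mttp-IKO* pools.

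Among keratins outside the 9 genes, Krt17 was the 1 of 4 tested that passed (adjusted p = 0.0390, edgeR), with 30, 13 and 14 reads in control pools and 2, 1 and 0 reads in *Mttp-IKO* pools. The share of all genes that passed as lower was 3.09%. Without any one pool other than control pool 2, and with the replicate block, 0 keratins of this list passed (edgeR; 2 or 3 at an unadjusted p under 0.05). Krt20 had 3.72, 0.222 and 1.12 CPM in the control pools, against 1.45, 0.0686 and 0.0839 CPM in the *Mttp-IKO* pools. Tff3, a mucosal trefoil peptide gene on the gallbladder list, was at 6.40, 20.7 and 20.3 CPM in the control pools, against 73.9, 138 and 22.8 CPM in the *Mttp-IKO* pools, without overlap (log2 fold change 2.31, adjusted p = 0.0920, edgeR). The pancreas list had 1 gene tested and the small intestine list 5, with 0 past the threshold by edgeR, DESeq2 or limma-voom and 0 at an unadjusted p under 0.05 by edgeR.

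The pool pattern most like that of Krt18 was that of St13, a gene of a chaperone cofactor (r = 0.999 over 6 pools, log2 CPM), followed by Tmem43 (0.998), and that most like Krt8 was Swap70 (0.996). For Krt19 it was Nup85 (0.996), for Epcam the transcription factor gene Nfe2l2 (0.998), for Krt7 Aoah (0.994), for Krt23 Tmem140 (0.998), for Sox9 Sirt6 (0.979), for Cftr Cryzl2 (0.990) and for Prom1 Ankrd13b (0.992). With 6 pools and over 12593 genes compared, values of this size describe the libraries only.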
